A study of Mus musculus with 4 samples.

Results

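CD8 T cells with the CD44high CD62Llow phenotype of effector memory cells, the subset named P3, were compared across all genes with cells of the CD44high CD62Lhigh phenotype of central memory, the subset named P2. Both were sorted by flow cytometry from spleen and lymph node of untreated PD-1-/- mice on the C57BL/6 background, aged 1 to 3 months. The deletion of PD-1, the inhibitory receptor encoded by Pdcd1, is carried by both subsets, so the comparison holds no cells with an intact gene. The comparison used 2 of the 4 single-colour Agilent arrays of the study. The other two, P4 (CD44low CD62Llow) and P1 (CD44low CD62Lhigh, the naive phenotype), are given as levels beside them. Each subset was measured on 1 array, and the labels do not say how many animals went into a sample. No test between subsets was possible, and genes were counted by size alone. Every subset had its own position on a shared slide, so the effect of position cannot be told apart from that of the subset.

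Memory CD8 T cells fall into classes with different routes through the body. Central memory cells keep CD62L and CCR7, which admit them to lymph nodes from the blood, and retain a large capacity to divide. Effector memory cells have lost both receptors, patrol blood, spleen and peripheral tissue, and hold cytotoxic granules ready for release. In a sorted bulk sample, fewer cells that carry a transcript and less transcript per cell cannot be told apart.

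A level is the log2 processed intensity of a gene's probe relative to the 75th percentile of its array, so that 0 is that percentile and 1 unit is 2-fold. A difference is the level in P3 minus that in P2. Levels of different genes come from different probes and are not set against each other. The 75th percentile itself was 799 intensity units in P3, against 480 in P2, 453 in P4 and 481 in P1. Probes well above background numbered 30811 in P3, against 27827 in P2. Repeated spots of a probe gave a log2 difference a 95% interval of plus or minus 0.20, widening to 0.59 for probes below a level of -3. The first rests on 574 pairs of probe and array, 535 of them at a level of 0 or more, and the second on 19. These intervals cover spot noise only, and leave out how far mice, cell sorts and labellings vary. Where a gene was not well above background on 1 of the 2 arrays, its difference is a bound and its fold is written as "at least". Such a bound holds for the processing used here, and some alternatives gave a smaller value.

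Transcripts of the sort and the lineage were examined first. Cd44 stood at 2.11 in P3, against 2.26 in P2, -1.24 in P4 and -1.80 in P1. The CD44high pair was thus alike in Cd44, with 3 probes between -0.53 and 0.08, and both lay far above the CD44low pair. Of 18 measured CD8 T cell identity genes, 0 were at least 2-fold higher and 0 lower, from -0.60 for the surface glycoprotein gene Thy1 to 0.64 for the adaptor gene Lcp2. Cd8a differed by 0.30, Cd8b1 by -0.11 and the receptor subunit gene Cd3e by -0.08. The median of these genes was -0.03, and 0.35 under quantile normalization. Pdcd1, the disrupted gene, still gave a level of 1.76 in P3, against -3.06 in P2, 1.70 in P4 and -3.30 in P1. Where its probe lies relative to the deletion was not examined, so it checks neither the genotype nor the labels.

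The P3 array also stood apart in transcripts of cells that are not T cells. Of 18 measured type 1 dendritic cell markers, 15 were at least 2-fold higher in P3, as were 12 of 18 type 2 dendritic cell and class II genes, 18 of 24 macrophage and monocyte markers and 7 of 11 B cell markers. Over all measured genes 10.9% were at least 2-fold higher. Of the higher members 4, 4, 8 and 5, in that order, were bounds above background in P3 alone, which could only count as higher. Values for each list follow further on. Several genes of effector T cells are also made by dendritic cells and macrophages, among them Itgax, Lgals3, Anxa3, Zeb2, Havcr2 and Csf1. What part such cells had in the differences below was not tested, and P4, whose class II levels were near those of P2, is given as a further value.

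Of 22909 genes with a probe, 13507 were measured in P3 or P2. At a size of 2-fold or more, 1476 of these (10.9%) lay above P2 in P3 and 797 (5.9%) lay below it. Counts within gene lists, above and below, are read against these shares. A gene above background in P3 alone could only be counted as higher, so the filter itself fixed the direction of such members. They were most frequent in the marker lists, where 9 of 12 measured innate lymphoid and 6 of 11 B cell genes were bounds. The median difference over all measured genes was -0.03. The excess toward P3 grew with size: 701 genes were at least 4-fold higher and 147 lower, 160 were at least 16-fold higher and 11 lower, and 18 were at least 64-fold higher and 2 lower. Among the 12240 genes well above background on both arrays, 887 were higher and 600 lower. Bounds made up the other 589 higher and 197 lower genes. The 10316 measured probes without a gene name ran the other way, with 524 (5.08%) higher and 1251 (12.1%) lower and a median of -0.34.

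**Figure D1:**
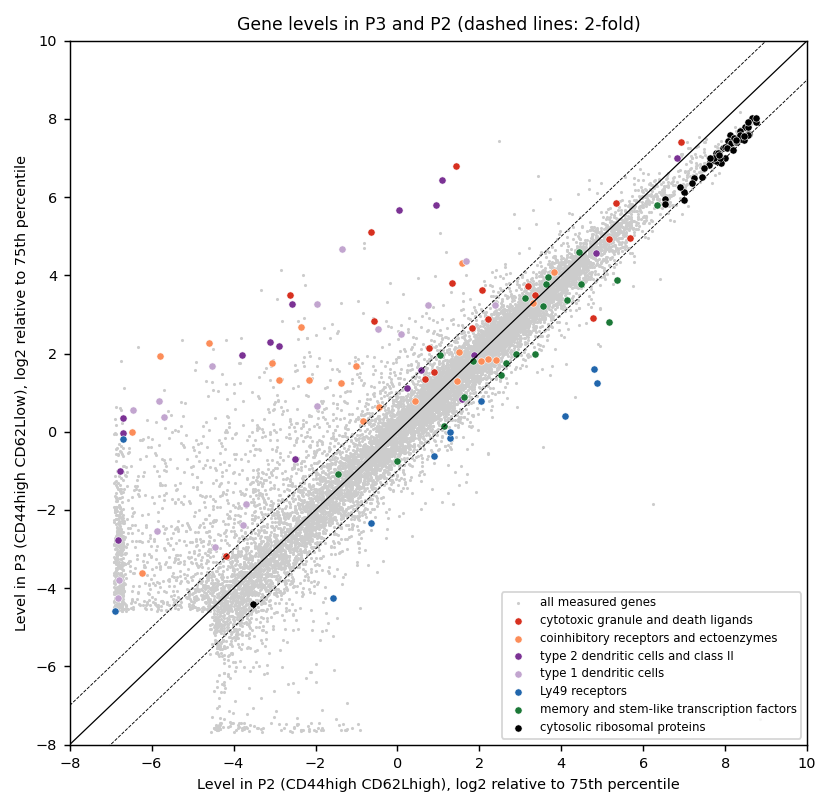
Level of each measured gene in P3 (vertical axis) and P2 (horizontal axis), in log2 units relative to the array's 75th percentile, with members of 7 gene lists coloured; each point is 1 gene on 1 array per axis. Many cytotoxic, coinhibitory and class II genes lie above the upper dashed line, most Ly49 genes below the lower one, and nearly all ribosomal protein genes in a narrow band under the diagonal.

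Receptors that bring T cells into lymph nodes and let them leave were lower in P3. Of 10 measured genes of lymph node homing and egress, 0 were at least 2-fold higher and 3 lower, with a median of -0.65. Ccr7, the receptor for chemokines of the T cell zone, stood at 5.39 in P3, against 6.74 in P2, 6.63 in P4 and 7.29 in P1 (difference -1.34). P3 was the lowest of the 4 arrays, although the difference was -0.95 under quantile normalization, short of 2-fold. Cxcr4, the receptor for CXCL12, differed by -1.30. S1pr1, which guides exit into lymph, differed by -0.76 and its activator Klf2 by -0.55, both short of 2-fold.

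Receptors for inflamed and peripheral tissue were mostly higher in P3, 10 of 16 at least 2-fold and 0 lower, with a median of 1.33. Cx3cr1, the fractalkine receptor of terminal effector cells and of monocytes, had the largest positive difference among the genes above background on both arrays. It stood at 4.13 in P3, against -2.84 in P2 and 1.19 in P4, and was not well above background in P1, a difference of 6.97 (126-fold). S1pr5, which supports exit of effector cells from tissue, stood at 1.69 in P3, against -2.27 in P2 and -0.71 in P4 (3.96). Ccr6, the CCL20 receptor shared by many lymphocyte and dendritic cell types, stood at 1.21 in P3, against -4.20 in P2, and was at background in P4 and P1. Ccr9, the gut homing receptor, was 2.59 higher in P3 than in P2, but at 1.65 it lay below P4 at 4.11 and P1 at 4.09. Inflammatory chemokine receptors differed less: Cxcr6 by 1.44, Ccr2 by 1.24 (0.98 under normexp correction) and Cxcr3 by 0.38.

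Integrins partner these receptors in adhesion. Of 13 measured subunit genes, 5 were at least 2-fold higher and 2 lower, with a median of 0.71 (0.36 to 0.77 over the alternative settings). The 2 lower were Itga5, a dim bound at -1.21, and Itga1 at -1.13, whose second probe differed by 2.16. Neither stayed 2-fold lower under normexp correction. Itga4, which encodes the α4 chain of VLA-4, stood at 5.66 in P3, against 3.32 in P2, 4.86 in P4 and 4.32 in P1 (2.35). Its partner Itgb1 differed by 1.11. Itgae, the E-cadherin receptor chain CD103, stood at 2.50 in P3, against 0.09 in P2, 3.53 in P4 and 3.51 in P1, so that P2 was the array set apart. Itgax, the CD11c chain of dendritic cells and of some effector T cells, differed by 2.49 on its brighter probe and by 0.22 on the other.

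Gzma, Gzmb and Gzmk separated the pair by large factors. Gzma stood at 6.80 in P3, against 1.42 in P2, 6.91 in P4 and -0.73 in P1, a difference of 5.38 (41.6-fold). Gzmb, the caspase-cleaving granzyme, stood at 5.11 in P3, against -0.64 in P2, 4.09 in P4 and -2.57 in P1 (5.75, 53.8-fold). Gzmk stood at 3.50 in P3, against -2.62 in P2 and 2.62 in P4, and was at background in P1 (6.12, 69.7-fold). For each of these granzymes P4 lay much nearer to P3 than to P2. Gzmm ran opposite, at 2.90 in P3, against 4.76 in P2, -0.70 in P4 and -0.91 in P1 (-1.86). Prf1, which encodes perforin, was 0.66 higher, within the 2-fold limit. Of 19 measured genes of granules and death ligands 8 were at least 2-fold higher and 1 lower, with a median of 0.66. Fasl, the ligand of the death receptor Fas, differed by 2.45, the vesicle fusion gene Stx11 by 3.40, and the granzyme inhibitor gene Serpinb6b by 1.58.

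**Figure D2:**
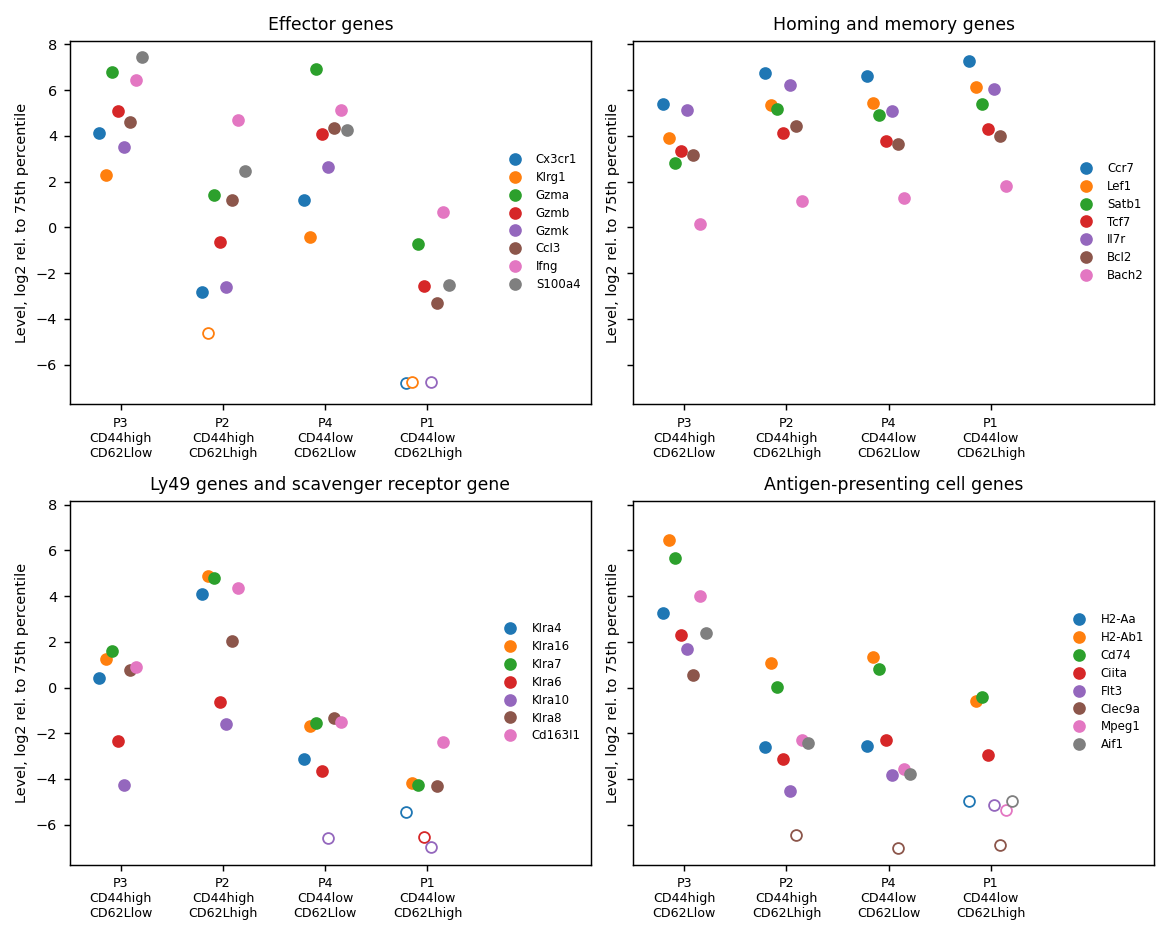
Levels of named genes on the 4 arrays (P3, P2, P4, P1 from left to right), in log2 units relative to the array's 75th percentile, 1 array per subset; filled points are well above background and open points are not. Effector genes are high in P3 and P4, homing and memory genes lowest in P3 apart from Il7r, which is lowest in P4, Ly49 genes highest in P2, and antigen-presenting cell genes highest in P3.

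Cytokine and chemokine genes followed in part: 10 of 23 were at least 2-fold higher in P3 and 1 lower, with a median of 0.76 (0.29 to 0.90 over the alternative settings). Ccl3, an inflammatory chemokine, stood at 4.61 in P3, against 1.20 in P2, 4.36 in P4 and -3.29 in P1 (3.41). Ifng, the macrophage-activating interferon, stood at 6.43 in P3, against 4.67 in P2, 5.12 in P4 and 0.69 in P1 (1.76). Ccl5 did not separate the memory pair, at 7.49 in P3 and 7.53 in P2, although P1 lay at 2.38. Csf1, the macrophage growth factor, was at least 72.3-fold higher, with a level of 1.59 in P3 and 1.75 in P4, and 3 probes between 3.67 and 6.18. Il10, an anti-inflammatory cytokine, was at least 24.2-fold higher, with levels of 0.01 in P3 and 0.03 in P4. Tnfsf11, which encodes RANKL, was at least 9.73-fold higher. Ccl1 was at least 16.2-fold higher, and the CD30 ligand gene Tnfsf8 was lower, with a difference of -1.16.

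Transcription factors of effector differentiation were higher as a group, 10 of 19 at least 2-fold and 0 lower, with a median of 1.29. Prdm1, which encodes BLIMP-1 and drives terminal differentiation, stood at 2.46 in P3, against 0.05 in P2, 1.49 in P4 and -1.16 in P1 (2.41). Id2, the inhibitor of E proteins required for effector cells, stood at 5.31 in P3, against 3.39 in P2, 5.12 in P4 and 4.52 in P1 (1.92), so P2 was the lowest array. Maf stood at 2.04 in P3, against -2.17 in P2, 1.47 in P4 and -2.50 in P1 (4.21). The repressor gene Hic1 differed by 4.02, the nuclear receptor gene Rora by 3.44 and Bhlhe40, a factor of cytokine production and tissue residence, by 3.06. All 4 were also higher in P4 than in P2. Zeb2, a partner of T-bet that dendritic cells also make, differed by 2.62, with a second probe at 4.98. The T-box pair did not separate the subsets: Tbx21, which encodes T-bet, differed by 0.31, at 4.06 in P3 and 3.75 in P2, and Eomes by 0.15, at 3.77 in P3 and 3.62 in P2.

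Factors of quiescence and self-renewal ran lower, with 0 of 20 at least 2-fold higher, 4 lower and a median of -0.71. Satb1, a chromatin organiser of T cells, stood at 2.80 in P3, against 5.17 in P2, 4.91 in P4 and 5.38 in P1 (-2.38). Lef1, the TCF family factor of naive and memory cells, stood at 3.89 in P3, against 5.35 in P2, 5.43 in P4 and 6.16 in P1 (-1.46). Myb differed by -1.37 and Klf7 by -1.09. P3 was the lowest array for Satb1 and Lef1, and the other three lay together. The remaining factors fell short of 2-fold on the probe used: Tcf7, which encodes TCF-1, by -0.78, Id3 by -0.88 and Foxp1 by -0.91. Bach2 was 1.99-fold lower. Second probes passed 2-fold for Foxp1, at -2.14, and for Bach2, at -1.13. Of the 20 factors 6 lay above 0, with Bcl6 the highest at 0.93.

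Genes induced through the antigen receptor showed no common shift, with 3 of 18 higher, 1 lower and a median of 0.21. Tox, the factor of sustained antigen exposure, stood at 3.81 in P3, against 1.37 in P2, 2.93 in P4 and 1.81 in P1 (2.44), and the signalling inhibitor gene Spry1 differed by 2.30. Nr4a2 differed by 1.15, and Myc, the growth regulator, by -1.35. Nr4a1, an immediate response gene, differed by -0.02.

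Coinhibitory receptors and ectoenzymes were higher in P3, 12 of 21 at least 2-fold and 0 lower, with a median of 1.12 (0.85 to 2.63 over the alternative settings). Klrg1, a lectin of terminally differentiated cells, had a level of 2.27 in P3 and -0.42 in P4 and was not well above background in P2 or P1, so P3 was at least 116-fold above P2. Havcr2, which encodes TIM-3, was at least 92.2-fold higher, with levels of 1.94 in P3 and 1.24 in P4. Lag3, a class II receptor, stood at 2.67 in P3, against -2.36 in P2 and 2.34 in P4 (5.02, 32.5-fold). Entpd1, the ATP-cleaving enzyme CD39, stood at 1.33 in P3, against -2.90 in P2, 0.63 in P4 and -4.35 in P1 (4.23). Cd200r1 was at least 23.9-fold higher (a difference of 3.46 on a second probe), and Ctla4, the CD28 antagonist, differed by 2.71. Btla ran slightly lower at -0.57, and the adenosine receptor gene Adora2a differed by -0.33.

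Costimulatory receptors had 5 of 18 members at least 2-fold higher and 0 lower, with a median of 0.53. Slamf1 differed by 3.17 (0.97 on a second probe), the 4-1BB gene Tnfrsf9 by 2.64 and the OX40 gene Tnfrsf4 by 1.56. Cd27, often taken to mark early memory, differed by only 0.16, and Cd28 by -0.52.

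Cytokine receptors split, with 6 of 27 higher, 4 lower and a median of -0.11. Il7r, the survival receptor for IL-7, stood at 5.14 in P3, against 6.21 in P2, 5.07 in P4 and 6.03 in P1 (-1.07, and -0.77 under quantile normalization). Il4ra stood at 1.53 in P3, against 3.40 in P2, 2.16 in P4 and 2.77 in P1 (-1.87). Il6ra differed by -1.78, its signalling partner Il6st by -1.20 and Il2rb, the chain shared by IL-2 and IL-15, by -0.63. On the higher side were Il2ra, the inducible IL-2 receptor chain, at 3.05 and Il10ra at 1.75, and, as dim bounds, Il1rl1, the IL-33 receptor, at least 2.71-fold and Il9r at least 2.33-fold (both under 2-fold with normexp correction). Among feedback inhibitors of these receptors, 2 of 8 SOCS genes were at least 2-fold higher, Socs2 by 3.12 and Cish by 2.94, and Socs3 differed by -0.90.

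Survival genes of the BCL2 family gave 4 higher and 2 lower of 14. Bcl2, the antiapoptotic member maintained by IL-7, stood at 3.18 in P3, against 4.44 in P2, 3.63 in P4 and 3.98 in P1 (-1.27). Bbc3, which encodes the proapoptotic PUMA, stood at 1.73 in P3, against 4.10 in P2, 1.82 in P4 and 2.60 in P1 (-2.37). Here P2 was the high array. Bcl2a1d, an antiapoptotic member of activated cells and one of several near-identical copies, differed by 2.24, and Pmaip1, the proapoptotic NOXA, by 1.11.

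The Ly49 receptors, lectins for MHC class I on NK cells and on memory-phenotype CD8 T cells, were lower in P3, with the lowest median of the 44 lists. Of 11 measured members 9 were at least 2-fold lower and 1 higher, the median being -1.52 (-2.25 to -1.33 over the alternative settings). Klra4 stood at 0.41 in P3, against 4.09 in P2 and -3.14 in P4, and was at background in P1 (-3.68). Klra16 stood at 1.23 in P3, against 4.88 in P2, -1.69 in P4 and -4.17 in P1 (-3.64). Klra7 stood at 1.60 in P3, against 4.79 in P2, -1.56 in P4 and -4.26 in P1 (-3.19). For each of these P2 was the highest array and P3 the next. Klra10 differed by -2.67 and Klra6 by -1.67, and the Klra5 spot (-1.52) lay in a locally bright area. These genes are near-identical copies whose probes can share targets, so the members are not separate observations. The member that ran the other way was Klra17, the Ly49Q of plasmacytoid and myeloid cells, which was at least 21.2-fold higher in P3 and at background on the other 3 arrays. Its second probe differed by 2.17.

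Other NK lectin receptors and adaptors had 7 of 15 members higher and 0 lower, with a median of 0.93 (0.13 to 1.01 over the alternative settings). Klrk1, which encodes NKG2D, stood at 2.89 in P3, against 1.08 in P2 and -1.29 in P4, and was at background in P1 (1.81). Tyrobp, the DAP12 adaptor of NK and myeloid cells, stood at 3.35 in P3, against -0.97 in P2 and -1.11 in P4 (4.32). Klrd1, the CD94 chain, differed by -0.22.

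Genes of migration and cytoskeleton that mark antigen-experienced cells were partly higher, 12 of 29 at least 2-fold and 1 lower, with a median of 0.65. S100a4 stood at 7.44 in P3, against 2.48 in P2, 4.25 in P4 and -2.51 in P1 (4.96, 31.2-fold). S100a6 stood at 6.55 in P3, against 3.43 in P2, 4.13 in P4 and -2.71 in P1 (3.12). Lgals3, a galectin of macrophages and activated T cells, stood at 4.82 in P3, against -0.82 in P2 and 1.77 in P4 (5.64). Anxa3 was at least 82.6-fold higher in P3, with a second probe at 3.15, but not well above background in P4. Anxa1 differed by 3.86 and Anxa4 by 3.59. In the RGS family of signal terminators 3 of 8 were higher and 1 lower, led by Rgs16 at 4.04, with a level of 5.09 in P3, against 1.04 in P2 and 4.40 in P4, and ending with Rgs10 at -1.48.

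Proliferation genes were higher in P3. Of 47 measured cell cycle genes, 27 were at least 2-fold higher and 0 lower, with a median of 1.21 (0.78 to 1.26 over the alternative settings). Mki67, the antigen of dividing cells, stood at 2.63 in P3, against 0.26 in P2, 0.26 in P4 and -1.54 in P1 (2.37). The mitotic kinase gene Cdk1 differed by 2.73, the cyclin gene Ccna2 by 2.64, the spindle gene Nusap1 by 2.45 and the thymidine kinase gene Tk1 by 2.33. The 5 members below 0 were the tubulin gene Tubb5 at -0.61, Cdk4 at -0.60, the cyclin genes Ccnd2 at -0.59 and Ccnd3 at -0.27, and the replication helicase gene Mcm2 at -0.08. Inhibitors of the cycle were higher as well, 5 of 8 at least 2-fold and 0 lower, with a median of 1.66 (0.82 to 1.71 over the alternative settings). Cdkn2b stood at -0.97 in P3, against -4.20 in P2 and -2.39 in P4 (3.23), Cdkn1a, which encodes p21, differed by 1.84 (under 2-fold with normexp correction), and Cdkn2a was at least 4.73-fold higher. Dividing cells of any type in the sort would add to these transcripts, and their part was not tested.

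Ribosomal genes moved together by a small amount. All 53 measured cytosolic ribosomal protein genes were lower in P3, the smallest difference being -0.54 for Rpl14, with 2 at least 2-fold lower and a median of -0.77. That size depended on scaling, since the median was -0.08 under quantile normalization and -0.09 in the authors' deposited values. The 30 measured genes of ribosome biogenesis were also all lower, from -0.99 for the fibrillarin gene Fbl to -0.12 for Bop1, with 0 at least 2-fold, and their median of -0.64 ran from -0.66 to -0.57 over the alternative settings.

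Energy metabolism separated the pair little. Of 36 measured genes of oxidative phosphorylation, 0 were at least 2-fold higher and 0 lower, with a median of -0.15, which turned to 0.10 under quantile normalization and in the authors' deposited values. Of 24 glycolysis genes 5 were higher and 1 lower, with a median of 0.01. The enolase gene Eno2 differed by 2.79 and the lactate exporter gene Slc16a3 by 2.06, while Pdk1, the kinase that closes pyruvate dehydrogenase, stood at 2.41 in P3, against 4.07 in P2, 4.06 in P4 and 4.74 in P1 (-1.66). Of 29 genes of cholesterol and fatty acid synthesis, 2 were higher and 0 lower, the squalene epoxidase gene Sqle by 1.75 and Cyp51 by 1.20 (under 2-fold with normexp correction). Type I interferon response genes had 0 of 28 higher and 3 lower, among them Oas2 at -1.59 and Oasl2 at -1.48, with a median of 0.15.

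Genes of regulatory T cells were higher with few exceptions, 11 of 13 at least 2-fold and 0 lower, with a median of 2.19 (1.74 to 2.24 over the alternative settings). Nrp1, a semaphorin receptor also made by dendritic cells, stood at 2.75 in P3, against -1.59 in P2, 0.25 in P4 and -2.19 in P1. Its 3 probes differed by 2.78 to 4.34. Foxp3, the lineage factor, stood at -1.57 in P3, against -3.81 in P2, -2.50 in P4 and -3.50 in P1 (2.23), all dim levels. Lrrc32, which presents latent TGF-β on regulatory T cells, differed by 3.48. The 11 higher members include Itgae, described above, which was lower in P3 than in P4 and P1. Cd4 itself stood at 0.22 in P3, against -0.38 in P2, -0.39 in P4 and -0.40 in P1 (0.60), and Zbtb7b, the factor of CD4 lineage choice, differed by 2.23. Cd40lg was not well above background on any array. In all, 4 of 8 measured CD4 T cell markers were at least 2-fold higher. The summed level of the 9 on the array was 4.92 in P3, against 4.07 in P2, 4.65 in P4 and 4.22 in P1, on the log2 scale. What part CD4 T cells had in these genes was not tested.

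**Figure D3:**
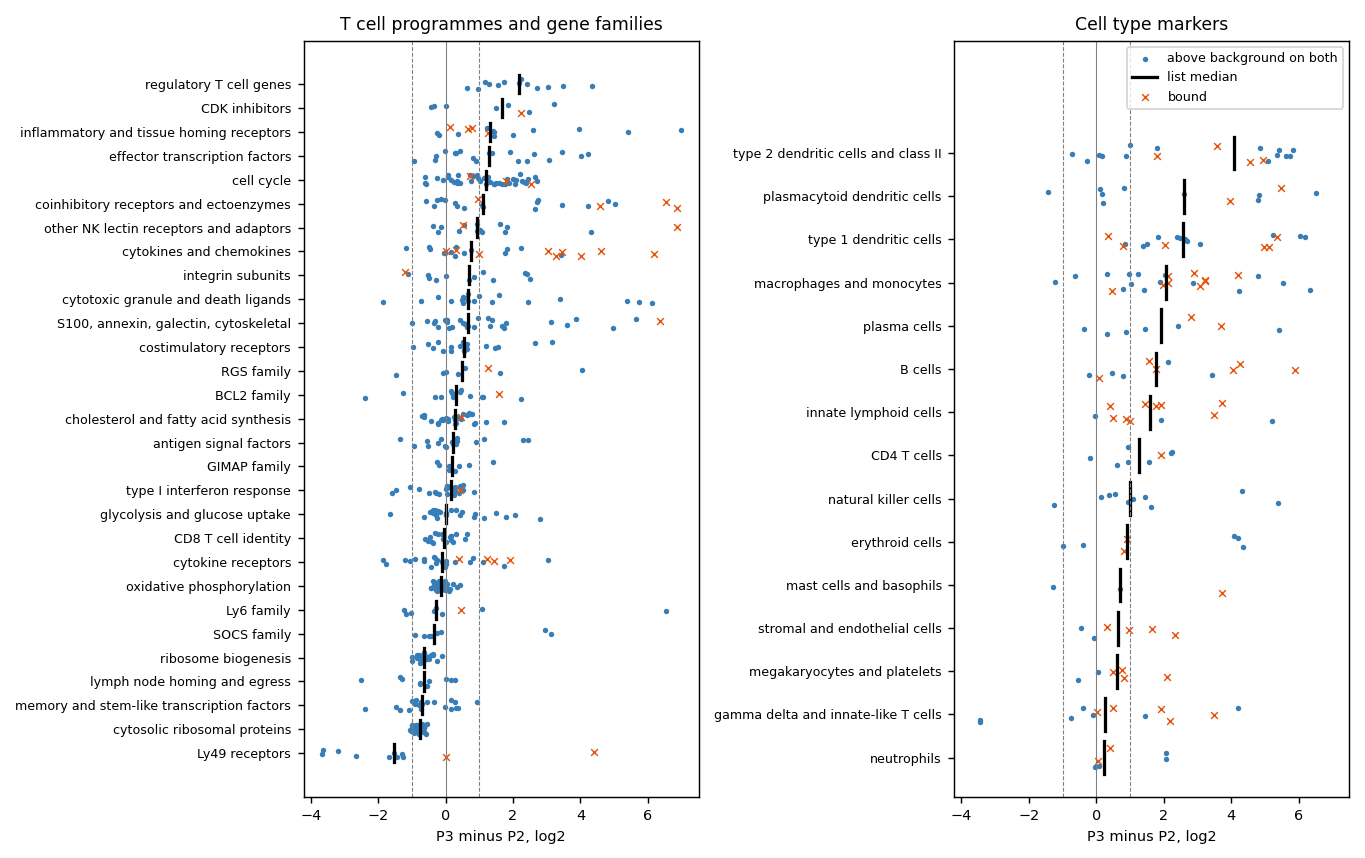
P3 minus P2 difference (log2) of every measured member of 29 T cell lists (left) and 15 marker lists (right), ordered by list median (black bar); circles are genes above background on both arrays, crosses are bounds, and dashed lines mark 2-fold. The Ly49 list has the lowest median, -1.52, and the list of type 2 dendritic cells and class II the highest, 4.07.

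Antigen-presenting cell genes were higher in P3 by large factors. MHC class II molecules display peptides to CD4 T cells, and mouse T cells do not make them in appreciable amounts. H2-Aa, the α chain of I-A, stood at 3.25 in P3, against -2.58 in P2 and -2.56 in P4, and was at background in P1 (5.84, 57.1-fold). H2-Ab1, its β chain, stood at 6.44 in P3, against 1.09 in P2, 1.33 in P4 and -0.60 in P1 (5.35), with 4 probes between 5.17 and 5.74. Cd74, the invariant chain, stood at 5.66 in P3, against 0.03 in P2, 0.83 in P4 and -0.41 in P1 (5.63). Ciita, the coactivator that switches these genes on, stood at 2.28 in P3, against -3.12 in P2, -2.29 in P4 and -2.96 in P1 (5.41, and 2.95 on a second probe). P3 was far above each of the other three arrays for all 4 genes. H2-DMb1, a peptide editor, differed by 5.09, whereas H2-Ob, a chain of its inhibitor, differed by -0.72 and H2-Oa by 0.08.

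The promoters of genes that respond to CIITA are known for an X box, bound by the RFX complex, and a Y box, bound by NF-Y, at a fixed spacing. Windows from 250 bases before to 50 after the gene start were taken from RefSeq on GRCm38.p6 for class II genes and searched on both strands for GNAACT, letters shared by the X boxes, and GATTGG, the core of the Y box. The letters and the allowed spacing of 20 to 40 bases between their starts were chosen after the sequences had been seen. The 9 genes considered were class II genes and Ciita, and Cd74 was not among them. H2-Ab1 and Ciita had no window. Of the 9 genes, 7 had a window, and 3 held the pair, H2-Aa, H2-Eb1 (a difference of 4.87) and H2-DMb1. Since the letters were chosen on these windows, that count is a description only. The windows around the pair are shown for comparison, on the strand of the gene, with GNAACT first and GATTGG second in capitals.
H2-Aa (chr17:34287855-34287916, minus strand): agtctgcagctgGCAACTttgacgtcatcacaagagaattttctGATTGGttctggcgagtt
H2-Eb1 (chr17:34305764-34305824, plus strand): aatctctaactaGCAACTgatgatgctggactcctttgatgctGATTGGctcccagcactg
H2-DMb1 (chr17:34153085-34153146, plus strand): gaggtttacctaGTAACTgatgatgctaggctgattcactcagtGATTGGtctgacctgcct
The starts of the pair lay 32 bases apart in H2-Aa and H2-DMb1 and 31 in H2-Eb1. Of 32851 RefSeq promoter windows of the same length, 42.8% held GNAACT, 16.1% held GATTGG and 0.317% held the pair. The windows of H2-DMb2, H2-Oa and H2-Ob held GATTGG and no GNAACT. H2-DMa had 2 windows, of which 1 held GNAACT, 1 held GATTGG and 0 held the pair. A match describes letters and shows no binding in these cells.

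Markers of type 1 dendritic cells, which cross-present antigen to CD8 T cells, had 15 of 18 members at least 2-fold higher, 4 of them as bounds, and 0 lower, with a median of 2.56. Flt3, the growth factor receptor of dendritic cells, stood at 1.67 in P3, against -4.52 in P2 and -3.82 in P4 (6.19). Clec9a, the receptor for dead cell actin, was at least 35.1-fold higher and Batf3, the factor that specifies these cells, at least 41.4-fold. Both were at background on the other 3 arrays. Xcr1, the receptor that defines these cells, was only just above background in P3, at -3.79, and at background elsewhere. The 15 higher members include Itgae, described above, which stood lower in P3 (2.50) than in P4 (3.53) and P1 (3.51). The summed level of the 18 genes was 6.59 in P3, against 3.71 in P2, 4.65 in P4 and 4.23 in P1, on the log2 scale.

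The list of type 2 dendritic cells and class II genes had 12 of 18 higher, 4 of them as bounds, and 0 lower, with a median of 4.07 (1.90 to 4.87 over the alternative settings). Clec10a and Cd209a, lectins of these cells, were at least 30.9-fold and 23.7-fold higher. The summed level was 8.58 in P3, against 7.30 in P2, 7.31 in P4 and 7.23 in P1.

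Of 24 measured macrophage and monocyte markers 18 were higher, 8 of them as bounds, and 1 lower, with a median of 2.08 (0.89 to 2.78 over the alternative settings). Mpeg1, a pore-forming protein of phagocytes, stood at 4.01 in P3, against -2.31 in P2 and -3.58 in P4 (6.33, and 2.36 on a second probe), and Aif1 differed by 4.80. Adgre1, which encodes F4/80, was above background in P3 alone, at -2.47, and Mertk and Fcgr1 were at background in both P3 and P2. The 1 lower member was Ly6c2, a surface protein also of memory CD8 T cells, at 6.63 in P3 and 7.86 in P2. The summed level was lower in P3, at 7.71, against 8.11 in P2, but Ly6c2 made up most of the P2 sum. The direction of the sum therefore follows that gene and not the other members, most of which were higher.

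Plasmacytoid dendritic cell markers had 6 of 11 higher and 1 lower, with a median of 2.59 (0.82 to 2.64 over the alternative settings). Ly6d differed by 6.53, Tcf4, their lineage factor, by 4.84 (3 probes between 0.23 and 5.04), and Spib was at least 45.0-fold higher. Siglech, their surface marker, had probes that disagreed, from -1.43 to 3.09. The 6 higher markers include Ccr9, whose difference is the list median. Ccr9 stood at 1.65 in P3, below P4 at 4.11 and P1 at 4.09. The summed level of the 11 genes was 6.12 in P3, against 6.39 in P2. The Siglech probe used, at 4.34 in P3 and 5.77 in P2, made up most of the P2 sum. The direction of the sum thus follows a gene whose probes disagree.

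Of 11 B cell markers 7 were higher, 5 of them as bounds, with a median of 1.78 (0.75 to 2.03 over the alternative settings). Blnk was at least 58.9-fold and Ms4a1, which encodes CD20, at least 19.3-fold higher. Among defining genes, Cd79a was just above background in P3, at -4.72, and Pax5 was at background in both P3 and P2. The summed level of the 14 B cell genes was 3.59 in P3, against 2.42 in P2. Of 8 plasma cell markers 5 were higher, with a median of 1.93 (1.17 to 1.98), led by the joining chain gene Jchain at 5.42. The 5 include Prdm1, described above among effector factors, and Slamf7, also listed as a costimulatory receptor. Sdc1 was dim, at -4.54 in P3, and its 3 probes disagreed, from -0.37 to 0.55. NK cell markers had 5 of 10 higher and 1 lower, with a median of 1.01 (0.56 to 1.36), and Ncr1, which defines these cells, was at background in both P3 and P2. The summed NK level was 7.42 in P3, against 5.15 in P2, 7.37 in P4 and 3.76 in P1. The list includes Gzma, described above, which made up most of the P3 and P4 sums, at 6.80 in P3 and 6.91 in P4.

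Innate lymphoid cell markers had 7 of 12 higher, 5 of them as bounds, and 0 lower, with a median of 1.61 (0.55 to 2.59 over the alternative settings). They were led by Tmem176b at 5.20 (3.00 on a second probe). Erythroid markers had 3 of 7 higher, all globin genes, with Hba-a1 at 1.92 in P3, against -2.28 in P2 (4.20), while Klf1, the erythroid factor, was at background in both. Markers of γδ and innate-like T cells split, with 5 of 12 higher and 2 lower. The 2 lower were the scavenger receptor genes Cd163l1, at 0.89 in P3, against 4.34 in P2, -1.50 in P4 and -2.40 in P1 (-3.45), and 5830411N06Rik, at -1.54 in P3, against 1.91 in P2 (-3.46). P2 was the high array for both. Neutrophil, mast cell, megakaryocyte and stromal lists had 6, 3, 6 and 6 measured members, and of these 2, 1, 1 and 2 were at least 2-fold higher.

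**Figure D4:**
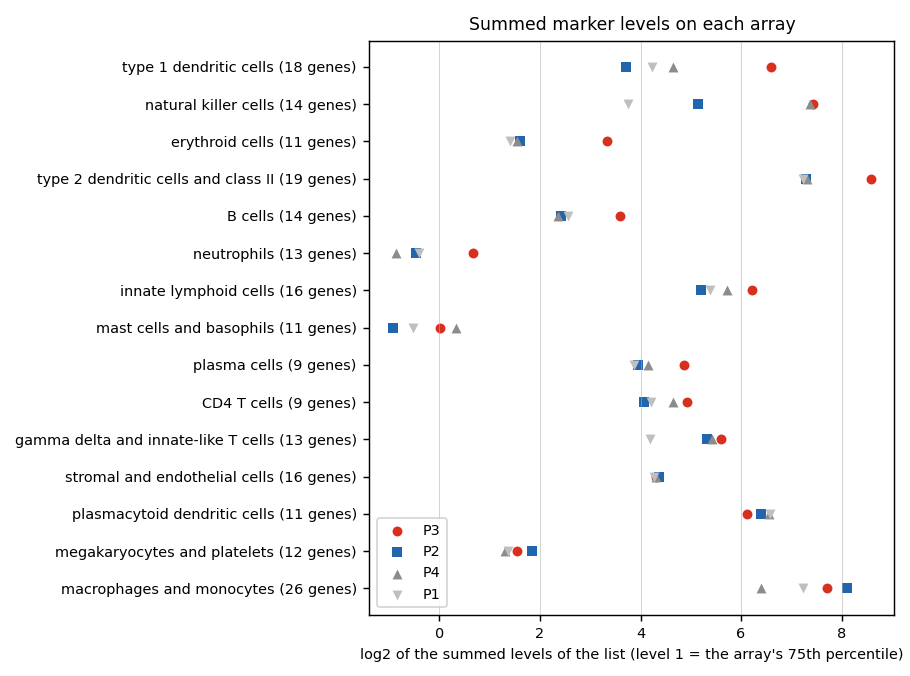
Summed level of the genes of 15 cell type marker lists on each array (P3 circles, P2 squares, P4 and P1 triangles), as log2 of the sum in units of the array's 75th percentile; 1 array per subset. P3 stands furthest above P2 for type 1 dendritic cells, 6.59 in P3 against 3.71 in P2.

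Several genes outside the marker lists with large differences were well above background in P4 also. Penk, the enkephalin precursor made by some activated T cells, stood at 3.63 in P3, against -3.32 in P2 and 2.46 in P4, and was at background in P1 (6.95, 124-fold). Adgrg1, the adhesion receptor GPR56 of cytotoxic lymphocytes, was at least 108-fold higher, with levels of 2.17 in P3 and 2.24 in P4. Pkdcc, a secreted kinase, was at least 98.0-fold higher, with 1.21 in P4, and its second probe differed by 2.62. Cd200r2 was at least 52.0-fold higher, with 0.54 in P4. Others were high in P3 alone: the protease gene Ctsh stood at 3.39 in P3, against -2.94 in P2 and -2.69 in P4, the inhibitory receptor gene Pirb at 2.39 in P3, against -3.83 in P2 and -3.06 in P4, and Il4i1, an amino acid oxidase of myeloid cells, at 3.75 in P3, against -2.27 in P2 and -1.79 in P4. Ctsh differed by 3.17 to 6.33 over 3 probes. Arhgap22, a regulator of small GTPases, was at least 123-fold higher and at background on the other 3 arrays.

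Fewer genes were lower in P3 by such factors. Drc1, a gene of the motile cilium, stood at -0.39 in P3, against 3.54 in P2, 0.11 in P4 and 0.69 in P1 (-3.93). Dlg5, a scaffold of cell polarity, stood at -1.08 in P3, against 1.70 in P2 and -3.87 in P4 (-2.78). For both P2 was the high array. Camk2a, a calcium-activated kinase gene, stood at -2.67 in P3, against 0.36 in P2, -0.05 in P4 and 0.87 in P1 (-3.03). Slc16a5, a monocarboxylate transporter gene, stood at -1.80 in P3, against 1.09 in P2, 0.78 in P4 and 1.36 in P1 (-2.89), and Raver2, an RNA-binding protein gene, at -1.58 in P3, against 1.23 in P2, 0.30 in P4 and 1.42 in P1 (-2.81). In these 3 genes P3 was the low array and the other three lay together. Among bounds, the keratin gene Krt13 was at least 21.8-fold lower in P3 and Art5 at least 17.5-fold lower, with P2 levels of -0.92 and -1.23.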

How the data were processed

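Labelled RNA was made from total RNA of the sorted cells and carried Cy3, per the labels' protocols. The authors used Agilent Feature Extraction 11.0.1.1 for spot intensity and for the flags of background, saturation and outliers, per the submitters' processing notes and the file headers. The deposited processed intensity is background-subtracted and detrended, and not normalized between arrays. The authors' deposited value table holds log2 values that have the same distribution on every array, so it was read as quantile normalised.

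From the 59305 spots that were no controls, outlier spots (122 to 152 per array) were dropped and 0 were saturated. Each level was log2 of the processed intensity less that array's 75th percentile on the same scale, and repeated spots were averaged. RefSeq accessions named 32994 of 56605 probes (58.3%), and each gene took its brightest probe by the mean of the 4 arrays. A gene was measured if well above background in P3 or P2. A dimmer value was raised to the lowest signal above background on its array, and 505 genes whose bound then ran against the brighter array were left out, a choice made after seeing the data. No error between samples exists, and the number of arrays limits the precision.

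Genes named were the 15 with the largest differences in each direction on both arrays, the 8 largest bounds, the 15 largest also above background in P4, up to 6 members of each of 44 lists in each direction, and a short set of sort and memory genes; those in locally bright areas, with disagreeing probes or with clone names were left out of the first groups. Nr4a1, Rpl14, Bop1, Cd4, H2-Eb1, H2-Oa, H2-DMa, H2-DMb2, Clec10a, Cd209a and markers given as near or at background were chosen after their values were seen. The members and lists were chosen with earlier results of these data known. The counting step was run on simulated arrays that held spot noise only, with changes only in genes above background on both arrays. That run cannot speak to the bounds or to variation between samples. Some genes that the rule names are not reported here. Alternatives are given in the closing section, and normexp (offset 50) used median signals. Python 3.11.15, numpy 2.4.6, pandas 2.3.3, scipy 1.17.1, R 4.3.3 and limma 3.58.1 were used.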

Additional observations from a re-analysis of the deposited data

How the results depend on the processing

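No paired analysis was possible because each subset has 1 array. The counts of genes at least 2-fold higher and lower in P3 were 1476 and 797. They were 923 and 483 with normexp background correction, and 842 and 392 in the authors' deposited values, which gave 11842 genes. With genes above background on both arrays 887 were higher. With no filter and no floor 1646 were lower. At 4-fold they were 701 and 147, and among probes without a gene name 524 and 1251. The other counts stayed within 1.5 times, including 1506 and 797 with quantile normalization, 1539 and 718 with median scaling and 1453 and 704 without locally bright areas. The higher share of the 2-fold calls on named genes was 64.9%, and 57.3% to 68.2% under the other normalizations and filters. Keeping the 505 genes with a contrary bound, an alternative added after seeing the data, gave the same 2 counts among 14012 genes.

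Of 216 named genes at least 2-fold apart, 184 stayed so in the same direction under every alternative that gave a value, and normexp ended 26 of these calls. The authors' values covered only 126 of the 216 and ended 10. Some alternatives reuse the same levels and could end no call: both arrays above background, bright areas left out, contrary bounds kept, and no filter and floor. Folds written as "at least" shrank under some alternatives. The smallest differences were 4.73 for Klrg1 (6.86 in the main setting), 4.58 for Havcr2, 4.99 for Adgrg1 and 4.98 for Arhgap22. With the mean over probes Itga1 turned to 0.52 and Siglech to 0.83. The oxidative phosphorylation median turned from -0.15 to 0.10 with quantile normalization and in the authors' values, and that of CD8 identity genes from -0.03 to 0.35. The median of 4 marker lists turned: γδ and innate-like T cells to -0.39 with genes above background on both arrays and to -0.31 in the authors' values; megakaryocytes to -0.24 and -0.13; mast cells to -0.29 and -0.12; and stromal cells to -0.26 and -0.13, and to -0.29 without filter and floor. These marker lists hold few measured genes. Rankings by size rest on 1 array per subset. Dim signal limits the bounds and every list that rests on them.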

Other observations

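The largest differences on the P2 side were left out of the naming because of their position on the array, and are given here, chosen after their values were seen. Tgm6, a transglutaminase gene, had a level of 8.85 in P2 and was at background on the other 3 arrays. Cd40, a costimulatory receptor gene of antigen-presenting cells, stood at -1.84 in P3, against 6.23 in P2, and was at background in P4 and P1. Both spots lay in locally bright areas, which held 93 of the 797 genes lower in P3 and 23 of the 1476 higher. A spot counted as lying in such an area where its level exceeded that on each of the other 3 arrays by 2-fold or more, and where at least 5 (P3) or 3 (P2) of its neighbours within 32 position units did so too.

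The Ly6 family divided by member. Ly6d, made by plasmacytoid dendritic cells and B cell precursors, was 6.53 higher in P3, and Ly6a, which encodes Sca-1, 1.07 higher. Ly6c1 and Ly6c2, near-identical genes that memory CD8 T cells carry, stood at 6.58 and 6.63 in P3, against 7.75 and 7.86 in P2, differences of -1.17 and -1.23 that were short of 2-fold under quantile normalization. Of 8 GIMAP genes, guanosine triphosphatases of lymphocyte survival, 1 was at least 2-fold higher, Gimap7 by 1.41, and 0 were lower.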
